A study of Mus musculus with 37 samples.

Results

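The 84 genes described here are those whose symbol in the probe annotation begins with Kcn and a lower-case letter, the prefix of the potassium channel genes, out of 18193 genes with 1 symbol there. They were covered by 167 probe sets, and each gene was represented by its brightest probe set, the one with the highest mean over all arrays. Of the 84, 81 encode pore-forming or auxiliary channel subunits. The other 3 are Kcnq1ot1, a long RNA antisense to Kcnq1, and Kcnmb4os1 and Kcnmb4os2, named as opposite-strand transcripts of Kcnmb4. Expression was measured in the cortex of male and female mice at 9 wk of age, with 1 Affymetrix Mouse Genome array per mouse. There were 10 Dble::R6/2, 9 R6/2, 9 Hdac4HET and 9 WT mice. R6/2 mice carry exon 1 of mutant human HTT as a transgene, and so model an N-terminal fragment of huntingtin and not the whole protein. Hdac4HET mice carry 1 null allele of the histone deacetylase gene Hdac4, Dble::R6/2 mice carry both, and WT mice carry neither. All 4 genotypes were bred on a mixed CBA and C57BL/6 background, and the null allele was made in another mouse strain, whose DNA may still flank it. The comparisons ask which potassium channel transcripts differ with the R6/2 transgene, and whether a reduced Hdac4 dose changes that.

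Potassium channels let potassium ions leave the neuron, which holds the resting potential and ends the action potential. Voltage-gated (Kv) channels open on depolarisation, calcium- and sodium-activated channels couple the current to ion entry, inwardly rectifying (Kir) channels conduct best near rest, and two-pore (K2P) channels carry the leak. Auxiliary proteins set how many channels reach the membrane and how fast they inactivate, among them the calcium-binding KChIP proteins on Kv4 channels, the Kv beta subunits on Kv1 channels and the BK beta subunits on Kcnma1. Altered potassium currents are a known feature of striatal and cortical neurons in mouse models of Huntington's disease.

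All values are on the log2 scale as deposited, 1 unit is a doubling, and levels of different genes are not compared because their probes differ. Detection calls were not used here, and 26 of the 84 genes lay below the median level of all probe sets. Array medians lay between 6.16 and 6.21, and arrays of 1 genotype correlated at 0.993 to 0.998. Hdac4 reached at most 8.02 on arrays with the null allele and at least 8.28 on arrays without it. On 6 arrays the sex-linked genes went against the labelled sex, and 7 arrays, 6 Hdac4HET and 1 Dble::R6/2, had raised markers of the olfactory bulb. In whole cortex, fewer cells of a type and less RNA per cell cannot be told apart. A gene was called when it changed more than 1.3-fold with a limma p under 0.05 after Benjamini-Hochberg adjustment, which took in all probe sets.

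Potassium channel genes were mostly lower in R6/2 than in WT cortex. Of 84, 9 fell past both thresholds (10.7%), against 3.30% of all genes. These were Kcnip2, Kcnh3, Kcnh5, Kcnma1, Kcnc1, Kcnk4, Kcnk12, Kcnip3 and Kcns1. Only Kcne1l rose past both (1.19%), against 3.75% of all genes. By the adjusted p at any size, those past both thresholds included, 38 were lower (45.2%, against 18.4% of all genes). On the same count 4 were higher (4.76%, against 28.1%). With no threshold, 69 of 84 lay below 0, and the median change was -0.14, beside 0.00 over all genes. Genes above the median level carried most of this. Of 58 such genes, 8 fell past both thresholds and 33 by the adjusted p at any size, with a median of -0.16. Over all 11442 genes above that level these were 507 and 2210, with a median of 0.07. The 26 dimmer potassium channel genes had 1 and 5, with a median of -0.09. The ranges of the R6/2 and WT arrays did not overlap for 11 genes, all lower in R6/2, against 3.84% of all genes that were lower and 8.36% that were higher in this way. These included Kcna1, Kcna6, Kcnh1, Kcnj5 and Kcnq5, whose changes were below 1.3-fold. The level of Kcnj5 lay below the median of all probe sets.

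**Figure D1:**
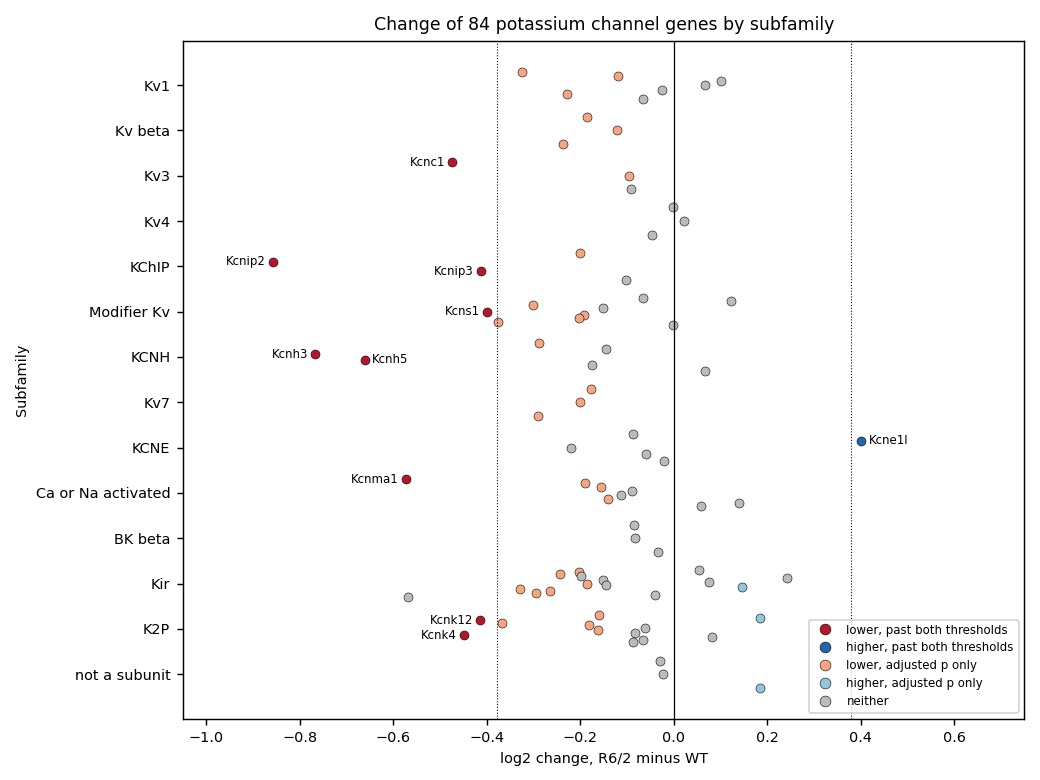
Log2 change, R6/2 minus WT, of the 84 potassium channel genes (horizontal axis), 1 point per gene by its brightest probe set, grouped by subfamily (vertical axis). Dotted lines mark 1.3-fold and colours mark the limma call. Points lie mostly left of 0, with Kcnip2 at -0.86 and Kcnh3 at -0.77 farthest out and Kcne1l alone past the right-hand line.

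The KChIP proteins (Kcnip1 to Kcnip4) are the calcium sensors that bind the Kv4 subunits and carry them to the membrane. Kcnip2, the member best known for setting the fast A-type and cardiac transient outward currents, had lowest, median and highest levels of 9.12, 9.44 and 9.67 in R6/2 cortex, against 10.17, 10.31 and 10.54 in WT cortex. No R6/2 array reached any WT array, and the level was 0.552 times that of WT (log2 change -0.86 ± 0.06 SE, limma adjusted p = 4.23e-15). Kcnip3, also known as calsenilin or DREAM, a KChIP that can act as a transcriptional repressor, lay at 8.54, 8.66 and 8.75 in R6/2 cortex and at 8.91, 9.05 and 9.25 in WT cortex. It also separated the genotypes completely, with a change of -0.41 ± 0.04 (adjusted p = 2.83e-10). Kcnip1 was lower by the adjusted p alone (-0.20, adjusted p = 0.0134), and Kcnip4 changed by -0.10 (adjusted p = 0.0829). The second probe sets of the called pair gave -0.88 for Kcnip2 and -0.51 for Kcnip3, both past both thresholds. The third Kcnip2 probe set, whose level is below the median of all probe sets, gave -0.32.

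The Kv4 subunits that these proteins bind were not called in R6/2 against WT. Kcnd2, the main Kv4 pore in cortical dendrites, lay at 10.75, 10.85 and 10.90 in R6/2 cortex and at 10.75, 10.80 and 10.94 in WT cortex. The ranges lay on top of each other, and the change of 0.02 had a 95% interval of -0.06 to 0.10. Kcnd3 changed by -0.05, with an interval of -0.14 to 0.05. Kcnd1 changed by -0.00, with an interval of -0.10 to 0.10. Each interval excludes a change of the size of that of Kcnip2, whose own interval was -0.97 to -0.74. Among proteins that also bind Kv4, Dpp10, a peptidase-like subunit that speeds channel gating, fell by 0.39 (adjusted p = 1.47e-10), and its relative Dpp6 changed by 0.01.

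**Figure D2:**
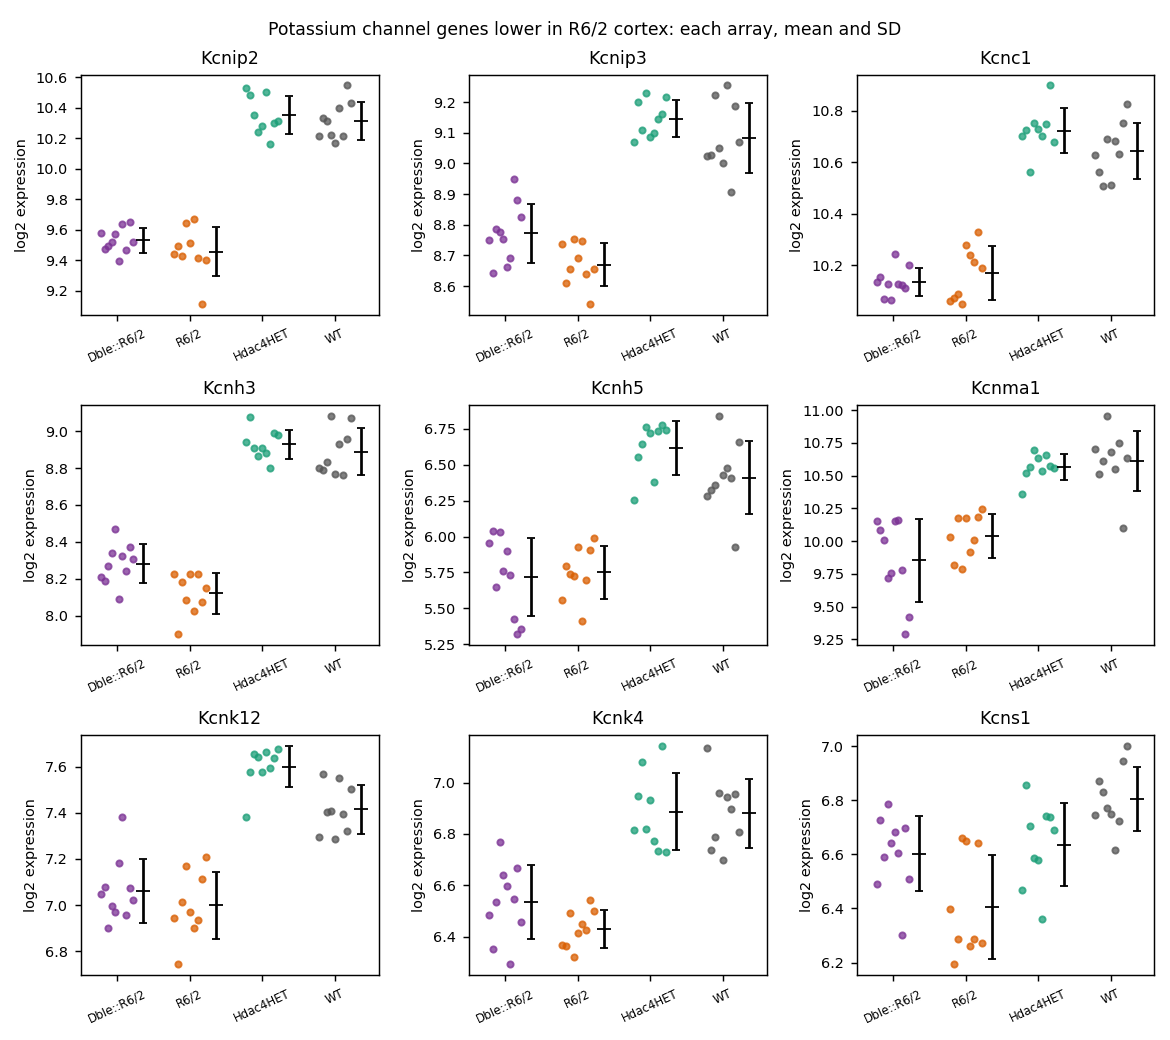
Log2 expression of the 9 potassium channel genes called lower in R6/2 against WT, with 1 point per array for Dble::R6/2 (n = 10), R6/2, Hdac4HET and WT (n = 9 each) and the mean with its SD beside the points. The Dble::R6/2 and R6/2 arrays lie below the Hdac4HET and WT arrays for most genes, with Kcnip2 between 9.12 and 9.67 in R6/2 and between 10.17 and 10.54 in WT, and for Kcns1 the Dble::R6/2 and Hdac4HET arrays overlap.

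Among the Kv3 channels, which repolarise fast-spiking neurons, the change was uneven. Kcnc1 had levels of 10.05, 10.19 and 10.33 (lowest, median, highest) in R6/2 cortex, against 10.51, 10.63 and 10.83 in WT cortex, with no overlap. It fell to 0.72 times the WT level (-0.47 ± 0.04, adjusted p = 8.57e-12). Kcnc2 was lower only by the adjusted p (-0.10, adjusted p = 0.0194), and Kcnc4 changed by -0.09 (adjusted p = 0.0744). Of the 3 other Kcnc1 probe sets, 1 gave -0.84 and passed both thresholds, 1 gave -0.29, and the dimmest gave -0.14 with an adjusted p of 0.102. Of 5 genes listed as markers of fast-spiking interneurons (Pvalb, Syt2, Tac1, Erbb4 and Gad1), 3 were lower by the adjusted p at any size and 1 of these past both thresholds. Their mean level per array ran from 8.42 to 8.73 in R6/2 and from 8.76 to 9.03 in WT, and their part in the change of Kcnc1 was not tested.

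Of the 7 Kv1 genes, which encode the low-threshold channels of axons and terminals, none was called on its brightest probe set and 3 were lower by the adjusted p. Kcna1 lay at 10.70, 10.79 and 10.99 in R6/2 cortex and at 11.02, 11.14 and 11.28 in WT cortex. Its ranges did not overlap, the change was -0.32 (adjusted p = 8.07e-07), and 2 less bright probe sets, at -0.48 and -0.52, passed both thresholds. Kcna6 changed by -0.23 (adjusted p = 5.12e-05) and Kcna2 by -0.12 (adjusted p = 0.0418). Kcna4, the Kv1 subunit that inactivates, changed by 0.07 (adjusted p = 0.468). All 3 Kv beta genes, whose products bind Kv1 channels on the cytoplasmic side, were lower by the adjusted p. Their changes were -0.18 for Kcnab1 (adjusted p = 0.00563), -0.12 for Kcnab2 (adjusted p = 0.000647) and -0.24 for Kcnab3 (adjusted p = 0.00231).

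The KCNH genes encode the EAG, ERG and ELK channels, which act near the firing threshold. Kcnh3, an ELK channel of forebrain neurons, had levels of 7.90, 8.15 and 8.23 in R6/2 cortex, against 8.76, 8.83 and 9.08 in WT cortex. The gap between the groups exceeded the range within each, and the level was 0.588 times that of WT (-0.77 ± 0.05, adjusted p = 3.08e-15). This size is that of the brightest Kcnh3 probe set. With the mean of all its probe sets, the call was kept in R6/2 against WT, but the change in Dble::R6/2 against Hdac4HET was -0.36, under 1.3-fold. Kcnh5, an EAG channel, lay at 5.42, 5.74 and 5.99 in R6/2 cortex and at 5.92, 6.41 and 6.84 in WT cortex. Its ranges met at the lowest WT array, and it fell by 0.66 ± 0.10 (adjusted p = 1.91e-06). Its mean level lay just below the median of all probe sets. Kcnh1, the other EAG gene, was lower without overlap but by less (-0.29, adjusted p = 3.78e-07). Its second probe set gave -0.39 and passed both thresholds. The ERG genes Kcnh2 and Kcnh7 changed by -0.15 (adjusted p = 0.115) and -0.18 (adjusted p = 0.0777), and the ELK gene Kcnh8 changed by 0.07 (adjusted p = 0.555).

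All 3 measured Kv7 genes, the family that carries the muscarine-sensitive M current, were lower by the adjusted p and none past 1.3-fold on its brightest probe set. Kcnq5 lay at 8.90, 9.10 and 9.25 in R6/2 cortex, against 9.29, 9.41 and 9.50 in WT cortex, and the groups did not overlap. Its change was -0.29 (adjusted p = 3.71e-07). Kcnq3 changed by -0.20 (adjusted p = 3.52e-05), and its dimmer probe set gave -0.43, past both thresholds. Kcnq1, mainly a cardiac and epithelial channel, changed by -0.18 at a low level (adjusted p = 0.031).

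The modifier Kv genes (Kcnf, Kcng, Kcns and Kcnv) encode subunits that form no channel alone and alter Kv2 channels. Of 9, 1 was called and 5 were lower by the adjusted p, with a median of -0.19. Kcns1 lay at 6.19, 6.29 and 6.66 in R6/2 cortex and at 6.62, 6.77 and 7.001 in WT cortex. The R6/2 arrays fell into a lower set of 6 and a higher set of 3 that overlapped WT, and the change was -0.40 ± 0.07 (adjusted p = 1.57e-05). The call was lost without WT replicate 9 or R6/2 replicate 2, over a range of -0.43 to -0.37 for single arrays left out, and without the arrays with sex-linked genes against the label (-0.38). Kcnv1 missed 1.3-fold on its brightest probe set (-0.38, adjusted p = 5.72e-06) but passed on both others, at -0.62 each. Kcnf1 changed by -0.07 (adjusted p = 0.49). Kcns3, known from parvalbumin neurons, was lower by the adjusted p alone (-0.20, adjusted p = 0.00248).

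The single rise was in the KCNE family of small single-span auxiliary subunits. Kcne1l, also called Kcne5 and located on chromosome X, had levels of 5.63, 5.83 and 6.09 in R6/2 cortex, against 5.20, 5.54 and 5.70 in WT cortex. The ranges overlapped slightly, and the change was 0.40 ± 0.10 (adjusted p = 0.00129). Its mean level lay below the median of all probe sets. The call was lost without any 1 of WT replicates 1, 4 and 5 or R6/2 replicates 4 and 6, with changes over all left-out arrays of 0.37 to 0.43. The other 4 KCNE genes were not called, and their changes ran between -0.22 and -0.02.

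Kcnma1, the pore of the large-conductance calcium-activated (BK) channel, was the called gene of the 8 calcium- or sodium-activated channels. It had levels of 9.79, 10.03 and 10.25 in R6/2 cortex, against 10.10, 10.64 and 10.96 in WT cortex. One WT array lay within the R6/2 range, the other WT arrays above it, and the level was 0.672 times that of WT (-0.57 ± 0.10, adjusted p = 9.16e-06). The other 4 Kcnma1 probe sets gave -0.41, -0.40, -0.33 and -0.13, of which 2 passed both thresholds, and the mean of all 5 gave -0.37, under 1.3-fold. Its 3 beta subunits were not called. Kcnmb4, the neuronal one, lay at 10.43, 10.66 and 10.80 in R6/2 cortex and at 10.59, 10.69 and 10.83 in WT cortex, with a change of -0.03 and an interval of -0.12 to 0.05. Among the small-conductance channels, which contribute to the afterhyperpolarisation, Kcnn1 changed by -0.19 (adjusted p = 0.00371) and Kcnn2 by -0.16 (adjusted p = 0.00146). The sodium-activated Kcnt1 changed by -0.14 (adjusted p = 0.00102) and its relative Kcnt2 by 0.14 (adjusted p = 0.185).

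None of the 15 Kir genes was called on its brightest probe set in R6/2 against WT, while 6 were lower and 1 higher by the adjusted p. Kcnj4, a strong rectifier of forebrain neurons, lay at 8.79, 8.95 and 9.15 in R6/2 cortex, against 9.14, 9.26 and 9.42 in WT cortex. Only the highest R6/2 array touched the WT range, and the change was -0.33 (adjusted p = 1.73e-08). Kcnj11, the pore of the ATP-sensitive channel, changed by -0.24 (adjusted p = 6.5e-06), and Abcc8, which encodes its sulphonylurea receptor, was lower by the adjusted p alone, by 0.23. Of the G-protein-gated (GIRK) subunits, Kcnj3 was higher by the adjusted p alone (0.14, adjusted p = 0.0258), and Kcnj6 and Kcnj5 were lower (-0.29, adjusted p = 0.00912, and -0.26, adjusted p = 6.74e-05). Kcnj5 was dim, with levels of 4.28 to 4.91 over all arrays. Kcnj10 and Kcnj16, the astrocytic pair that clears extracellular potassium, changed by -0.20 (adjusted p = 0.0375) and -0.19 (adjusted p = 0.011). Astrocyte markers moved with them: 8 of 10 were lower by the adjusted p, and their mean per array ran from 10.70 to 10.89 in R6/2 and from 11.00 to 11.11 in WT. The part of that shift in the Kcnj10 and Kcnj16 values was not tested.

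Kcnj9, the third GIRK subunit of the brain, was read by 4 probe sets that behaved differently. The brightest spread over 1.58 log2 units within R6/2 and 1.26 within WT. In R6/2 cortex 5 arrays lay between 8.27 and 8.73 and 4 between 9.78 and 9.85, and in WT cortex 5 lay between 9.08 and 9.40 and 4 between 10.13 and 10.34. With levels so divided within each genotype, its change of -0.57 had an adjusted p of 0.073. The second probe set had no such division, with 8.47 to 8.82 in R6/2 against 9.02 to 9.36 in WT. It separated the genotypes and passed both thresholds (-0.48, adjusted p = 9.02e-10). The dimmest also passed both thresholds (-0.42, adjusted p = 0.0114), and the remaining one changed by -0.08 (adjusted p = 0.306). Kcnj10 was higher on the same arrays as the brightest Kcnj9 probe set. In WT cortex these 4 arrays had Kcnj10 at 10.23 to 10.41 and the others at 9.90 to 10.06. In R6/2 cortex the sets overlapped slightly, at 9.93 to 10.18 and 9.58 to 9.97.

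**Figure D3:**
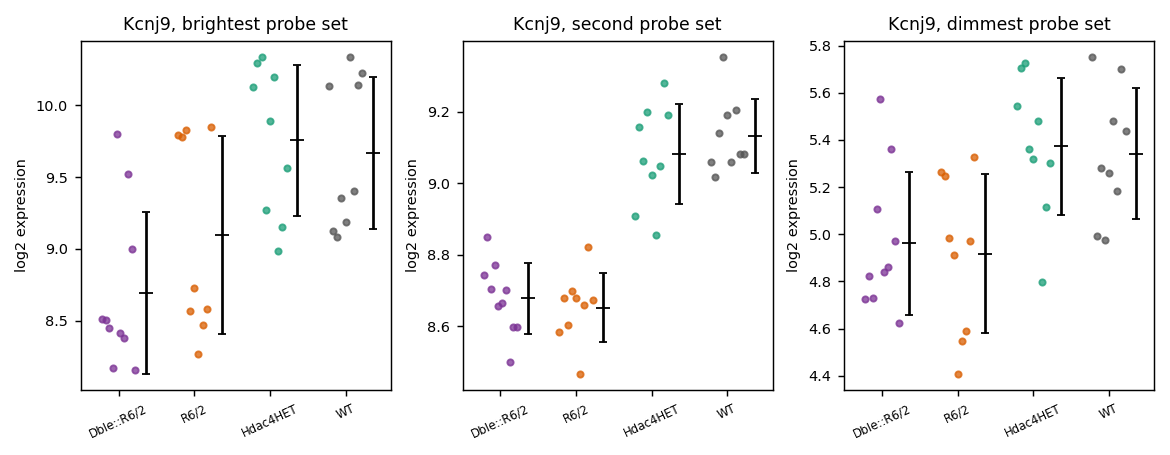
Log2 expression of Kcnj9 by 3 of its 4 probe sets, 1 point per array, with mean and SD beside the points, for Dble::R6/2 (n = 10), R6/2, Hdac4HET and WT (n = 9 each). The brightest probe set spreads over more than 1 unit within each genotype, with 5 R6/2 arrays at or below 8.73 and 4 at or above 9.78, whereas the second probe set lies at 8.47 to 8.82 in R6/2 and 9.02 to 9.36 in WT.

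Among the 12 K2P genes, which set the background leak, 2 fell past both thresholds. Kcnk4 (TRAAK), a mechanosensitive channel, had levels of 6.32, 6.42 and 6.54 in R6/2 cortex, against 6.70, 6.90 and 7.13 in WT cortex, and fell by 0.45 ± 0.06 (adjusted p = 1.67e-07). Kcnk12 (THIK-2) lay at 6.74, 6.97 and 7.21 in R6/2 cortex and at 7.29, 7.40 and 7.57 in WT cortex, and fell by 0.41 ± 0.06 (adjusted p = 2.3e-07). Both separated the genotypes on every array. Kcnk13 (THIK-1), the microglial relative of Kcnk12, was lower by the adjusted p alone (-0.37, adjusted p = 2.8e-05), and 3 of 6 microglial markers were lower by the adjusted p as well. Kcnk1 (TWIK-1) and Kcnk2 (TREK-1) each changed by -0.16 (adjusted p = 0.000141 and 0.0107). Kcnk10 (TREK-2) was higher by the adjusted p alone (0.18, adjusted p = 0.033).

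The 250 bases upstream of the annotated start are shown for 4 genes that fell in both comparisons of the R6/2 transgene and for Kcnd2, a Kv4 gene called in neither comparison on its brightest probe set, although 2 of its other probe sets were called in Dble::R6/2 against Hdac4HET. Sequences are from RefSeq, build GRCm38.p6, 5′ to 3′ on the gene's strand. Capitals mark 3 motifs searched on both strands. The first is the GC box, spelled GGGCGG. The second is the core of the cAMP response element, spelled TGACG. The third is the TATA box, spelled TATAAA, which none of the 5 sequences holds. Kcnip2 is at chr19:45816064-45816313 (minus), Kcnma1 at chr14:24004206-24004455 (minus), Kcnc1 at chr7:46396218-46396467 (plus), Kcnh5 at chr12:75177333-75177582 (minus) and Kcnd2 at chr6:21215096-21215345 (plus).
Kcnip2: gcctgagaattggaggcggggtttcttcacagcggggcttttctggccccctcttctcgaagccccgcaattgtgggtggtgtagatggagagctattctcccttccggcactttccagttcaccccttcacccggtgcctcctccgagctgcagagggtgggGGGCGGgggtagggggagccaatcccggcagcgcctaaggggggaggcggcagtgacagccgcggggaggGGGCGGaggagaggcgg
Kcnma1: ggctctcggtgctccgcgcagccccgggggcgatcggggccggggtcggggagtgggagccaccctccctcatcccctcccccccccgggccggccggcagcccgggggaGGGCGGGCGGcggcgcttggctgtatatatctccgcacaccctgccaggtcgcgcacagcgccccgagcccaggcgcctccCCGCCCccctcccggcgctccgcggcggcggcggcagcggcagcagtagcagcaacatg
Kcnc1: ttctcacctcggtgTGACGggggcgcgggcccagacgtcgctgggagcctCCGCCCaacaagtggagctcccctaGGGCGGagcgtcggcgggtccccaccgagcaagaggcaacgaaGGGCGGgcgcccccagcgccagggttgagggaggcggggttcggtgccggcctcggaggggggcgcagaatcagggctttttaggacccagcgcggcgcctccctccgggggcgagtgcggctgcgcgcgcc
Kcnh5: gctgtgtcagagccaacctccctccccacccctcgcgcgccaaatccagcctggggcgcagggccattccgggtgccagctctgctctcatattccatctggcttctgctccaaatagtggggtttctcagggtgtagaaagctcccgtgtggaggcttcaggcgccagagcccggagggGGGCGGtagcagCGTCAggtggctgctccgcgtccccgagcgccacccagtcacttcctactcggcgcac
Kcnd2: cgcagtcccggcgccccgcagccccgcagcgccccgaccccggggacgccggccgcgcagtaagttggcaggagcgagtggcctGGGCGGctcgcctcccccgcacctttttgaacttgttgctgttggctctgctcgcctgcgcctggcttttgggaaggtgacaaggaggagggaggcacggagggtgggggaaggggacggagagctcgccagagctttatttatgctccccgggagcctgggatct

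Promoter sequences matched 64 of the 84 genes, with 89 entries, since some genes have several starts. Of the 16 genes that fell in either comparison of the transgene, 13 matched, with 17 entries, and Kcnh3, Kcna1 and Kcnv1 did not. A GC box, on either strand, stood in 11 of these 17 entries, in 29 of the 72 entries of the other potassium channel genes and in 32.7% of all 32851 promoters. Among the printed sequences it occurs 2 times in Kcnip2, 3 times in Kcnma1 (of which 2 overlap) and 3 times in Kcnc1, and 1 time each in Kcnh5 and Kcnd2. The TGACG core stood in 3 of 17 and 11 of 72 entries (17.8% of all), and the full TGACGTCA in 0 of each (1.55% of all). A TATAAA stood in 1 of 17 and 2 of 72 (12.4% of all), and the MEF2 site, the motif of a factor that class IIa deacetylases bind, in 1 of 17, that of Kcnj9, and 1 of 72 (2.92% of all). Median GC content was 63.2% in the entries of the genes that fell, 58.0% in those of the other potassium channel genes and 52.4% in all promoters. These are matches of letters within the window and say nothing of binding.

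The transgene was compared a second time on separate arrays, in mice that all carried the Hdac4 null allele. In Dble::R6/2 against Hdac4HET, 13 potassium channel genes fell past both thresholds (15.5%), against 4.08% of all genes, and 0 rose, against 2.60% of all genes. At an unadjusted p under 0.05 in limma, 4 were higher and 44 lower, against 32.6% and 16.4% of all genes. By the adjusted p at any size, 37 were lower (44.0%, against 14.1% of all genes) and 2 higher (2.38%, against 28.4%). The median change was -0.12, beside 0.04 over all genes. The 13 were Kcna1, Kcnc1, Kcnh3, Kcnh5, Kcnip1, Kcnip2, Kcnj4, Kcnj9, Kcnj10, Kcnj12, Kcnk12, Kcnma1 and Kcnv1. Ranges did not overlap for 17 genes, all lower in Dble::R6/2, against 4.29% of all genes that were lower and 8.72% that were higher in this way. Of the 10 genes called in R6/2 against WT, 6 were called here too, and 9 had an adjusted p under 0.05 in the same direction. Of the 13 called here, 11 had an adjusted p under 0.05 in the same direction in R6/2 against WT. Across the 84 genes the changes of both comparisons had the same sign for 65 and correlated at r = 0.77 (Spearman's rho 0.71). This describes genes that share arrays within each comparison and are not independent. The agreement was not computed over all genes, so it is not shown to be particular to these 84.

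**Figure D4:**
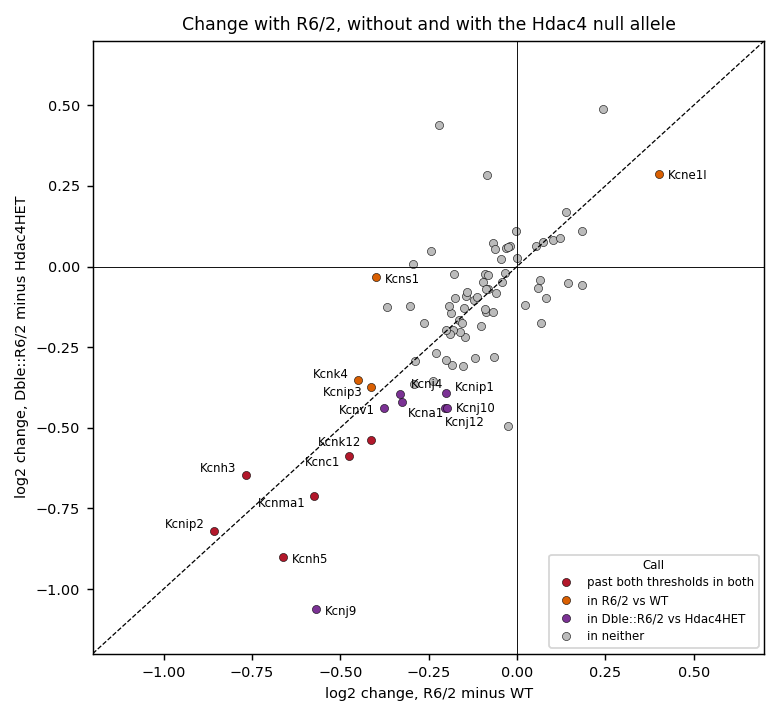
Log2 change of the 84 potassium channel genes, 1 point per gene, in Dble::R6/2 minus Hdac4HET (vertical axis) against R6/2 minus WT (horizontal axis), with the line of equal change dashed and colours for the limma calls. Kcnip2, Kcnh3, Kcnh5, Kcnma1, Kcnc1 and Kcnk12 are past both thresholds in both, and Kcns1 lies at -0.40 in R6/2 against WT and at -0.03 in Dble::R6/2 against Hdac4HET.

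The leading genes had similar sizes of change with the null allele. Kcnip2 had levels of 9.39, 9.52 and 9.65 in Dble::R6/2 cortex, against 10.16, 10.31 and 10.53 in Hdac4HET cortex (-0.82 ± 0.06, adjusted p = 6.31e-15). Kcnh3 lay at 8.09, 8.29 and 8.47 in Dble::R6/2 and at 8.80, 8.91 and 9.08 in Hdac4HET (-0.65 ± 0.05, adjusted p = 1.45e-13). Kcnc1 lay at 10.07, 10.13 and 10.24 in Dble::R6/2 and at 10.56, 10.73 and 10.90 in Hdac4HET (-0.59 ± 0.04, adjusted p = 1.43e-14). None of the 3 had overlapping ranges, but with the mean of all 4 Kcnh3 probe sets its change was -0.36 and missed 1.3-fold. Kcnma1 lay at 9.29, 9.89 and 10.16 in Dble::R6/2, below its 10.36, 10.56 and 10.69 in Hdac4HET (-0.71 ± 0.10, adjusted p = 1.15e-07). Kcnh5 lay at 5.32, 5.75 and 6.04 in Dble::R6/2, below its 6.25, 6.72 and 6.78 in Hdac4HET (-0.90 ± 0.10, adjusted p = 2.26e-09). Kcnk12 fell by 0.54 ± 0.06 (adjusted p = 5.02e-10), although the highest Dble::R6/2 array and the lowest Hdac4HET array were equal at 7.38 to the last digit given. Kcnma1 and Kcnh5 thus separated here and not in R6/2 against WT.

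Of the 7 further genes called in Dble::R6/2 against Hdac4HET, 4 were Kir channels. Kcnj10, of astrocytes, had levels of 9.64, 9.78 and 10.02 in Dble::R6/2, against 10.00, 10.20 and 10.51 in Hdac4HET (-0.44, adjusted p = 1.23e-05), and the ranges met only at their edge. Its higher arrays were again those of the higher Kcnj9 set. Hdac4HET replicates 1, 2, 3, 5 and 6 lay at 10.20 to 10.51 and the other Hdac4HET arrays at 10.00 to 10.12. Dble::R6/2 replicates 5 and 8 lay at 9.98 and 10.02 and the others at 9.64 to 9.88. The part of this division in the Kcnj10 change was not tested. Kcnj12, a strong rectifier, had 6.35, 6.64 and 6.90 in Dble::R6/2, against 6.82, 7.08 and 7.25 in Hdac4HET (-0.44, adjusted p = 2.18e-05). Kcnj4 lay at 8.92, 9.02 and 9.15 in Dble::R6/2, all below its 9.33, 9.42 and 9.51 in Hdac4HET (-0.40, adjusted p = 1.68e-10). Kcna1 changed by -0.42 (adjusted p = 2.37e-09), Kcnv1 by -0.44 (adjusted p = 2.21e-07) and Kcnip1 by -0.39 (adjusted p = 4.34e-06). Kcnj9 changed by -1.06 (adjusted p = 0.000651), again with a wide spread on its brightest probe set, where 8 of 10 Dble::R6/2 arrays lay between 8.16 and 9.00 and the other 2 at 9.53 and 9.80. In Hdac4HET 4 arrays lay between 8.98 and 9.57 and 5 between 9.89 and 10.33. The share of arrays in the higher set thus differed between the genotypes, and its part in the -1.06 was not tested. The second Kcnj9 probe set changed by -0.40 (adjusted p = 2.5e-08). Kcnd2, at -0.12 on its brightest probe set (adjusted p = 0.0111), passed both thresholds on 2 others, at -0.57 (adjusted p = 2.56e-05) and -0.43 (adjusted p = 1.82e-06). The same 2 probe sets gave -0.09 and -0.10 in R6/2 against WT, with adjusted p of 0.545 and 0.243. The brightest Kcnd2 probe set lay at 10.87 to 11.09 on the Hdac4HET arrays with raised bulb markers. It lay at 10.72 to 10.89 on the other Hdac4HET arrays and at 10.72 to 10.87 in Dble::R6/2. The part of bulb tissue in the Kcnd2 change was not tested.

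Olfactory bulb markers differed in the same comparison, in which 10 of 14 were lower past both thresholds, with means per array of 5.54 to 6.59 in Dble::R6/2 and 5.66 to 8.03 in Hdac4HET. Without the 7 arrays with raised bulb markers, a comparison that keeps 3 Hdac4HET arrays, 17 potassium channel genes were called, all lower, beside 729 lower and 635 higher of all 18193 genes. Kcnip1 (-0.27) and Kcnj4 (-0.36) then missed 1.3-fold. Kcnip1 was also lost without any 1 of Hdac4HET replicates 1, 5 and 7 or Dble::R6/2 replicate 2, over a range of -0.43 to -0.35. Striatal markers were lower in both comparisons of the transgene, all 6 of 6 past both thresholds in each, with means per array of 7.71 to 8.80 in R6/2 against 8.28 to 9.42 in WT and of 8.04 to 8.63 in Dble::R6/2 against 8.93 to 9.60 in Hdac4HET. Genes listed as markers of interneurons other than fast-spiking ones (Sst, Vip, Npy, Crh, Cck and Lamp5), though not shown to be confined to them, were also lower. All 6 of 6 were past both thresholds in each comparison. Their median changes were -1.08 in R6/2 against WT and -1.01 in Dble::R6/2 against Hdac4HET, beside medians of -0.69 and -1.11 for the striatal markers. Their means per array were 9.93 to 10.50 in R6/2 against 11.04 to 11.32 in WT, with no overlap. Of 7 cortical neuron markers 4 were lower by the adjusted p alone in each comparison, and of 6 oligodendrocyte markers 2 were lower past both thresholds in each. The part of any of these cell types or tissues in the potassium channel changes was not tested.

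No potassium channel gene was called for the Hdac4 null allele alone. In Hdac4HET against WT, 0 of 84 were called, against 0.368% of all genes. At an unadjusted p under 0.05 in limma 5 were lower and 15 higher, against 8.53% and 10.6% of all genes, and the methods' t-test called 0. Kcnj4 alone had an adjusted p under 0.05 and was higher, as were 1.33% of all genes. It lay at 9.33, 9.42 and 9.51 in Hdac4HET, against 9.14, 9.26 and 9.42 in WT, with overlapping ranges (0.15, adjusted p = 0.0474). The widest differences were -0.80 for Kcne2, -0.57 for Kcnj13 and 0.51 for Kcna5, with limma adjusted p of 0.262, 0.235 and 0.202. These genes are set beside markers of other tissues below, and the part of those tissues in the differences was not tested.

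The R6/2 change was compared directly with and without the null allele. In Dble::R6/2 against R6/2, 0 of 84 genes were called, against 0.0879% of all genes. At an unadjusted p under 0.05 in limma 2 were lower and 11 higher, against 4.77% and 11.4% of all genes, and the methods' t-test again called 0. For Kcnip2 the difference was 0.07, with a 95% interval of -0.04 to 0.18. For Kcnc1 it was -0.03, with an interval of -0.12 to 0.05. For Kcnma1 it was -0.18, with an interval of -0.38 to 0.01. For Kcnh3 it was 0.16, with an interval of 0.06 to 0.26 (adjusted p = 0.0698). By the adjusted p alone 2 genes were higher, as were 1.53% of all genes, and 1 was lower, as were 0.429%. Kcnj11 was higher by 0.15 (adjusted p = 0.0439) and Kcnmb1, the smooth-muscle BK beta subunit, by 0.29 (adjusted p = 0.0457), while the antisense RNA Kcnq1ot1 was lower by 0.33 (adjusted p = 0.0124). The level of Kcnmb1 lay below the median of all probe sets.

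Kcnj11 was also the gene of the 84 whose R6/2 change differed with the null allele, by the interaction test, where 0 were called (against 0.187% of all genes) and 6 were above and 10 below 0 at an unadjusted p under 0.05 in limma, against 11.3% and 7.91% of all genes. Its levels were 7.81, 7.98 and 8.09 in Dble::R6/2, 7.68, 7.84 and 7.97 in R6/2, 7.85, 7.94 and 7.98 in Hdac4HET and 7.91, 8.07 and 8.19 in WT. R6/2 lay lowest and WT highest, with both genotypes that carry the null allele between them, and all 4 ranges overlapped. The interaction was 0.29 ± 0.06 (adjusted p = 0.0127), smaller than 1.3-fold. An adjusted p under 0.05 above 0 was found for 0.550% of all genes. Kcns1, the gene called in R6/2 against WT that did not pass the adjusted p in Dble::R6/2 against Hdac4HET, had levels of 6.30, 6.62 and 6.79 in Dble::R6/2 and 6.36, 6.69 and 6.86 in Hdac4HET. Its interaction of 0.37 had an adjusted p of 0.0529.

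Some potassium channel genes followed markers of tissue other than cortex. Kcnj13 and Kcne2 are channel genes of the choroid plexus epithelium, and with Kcnj9 they had the 3 largest SDs among WT arrays. The SDs were 0.76 for Kcne2, 0.53 for Kcnj9 and 0.43 for Kcnj13, beside a median SD of 0.13 over the 84 genes. Kcnj13 lay at 5.62, 6.99 and 8.05 in Dble::R6/2, 6.57, 7.27 and 8.23 in R6/2, 6.14, 6.57 and 7.06 in Hdac4HET and 6.51, 7.31 and 7.54 in WT. The mean of 9 choroid plexus markers ran from 5.53 to 7.32 in Dble::R6/2, 5.60 to 7.31 in R6/2, 5.64 to 6.49 in Hdac4HET and 5.82 to 6.82 in WT, and Kcnj13 was high on the arrays where it was high. Kcne2 did so too except on R6/2 replicate 5 and Dble::R6/2 replicate 6, where it lay at 3.98 and 3.71 beside Kcnj13 at 8.06 and 7.98. Kcna5 lay between 7.18 and 7.45 on the 7 arrays with raised bulb markers and between 5.59 and 7.27 on the others.

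**Figure D5:**
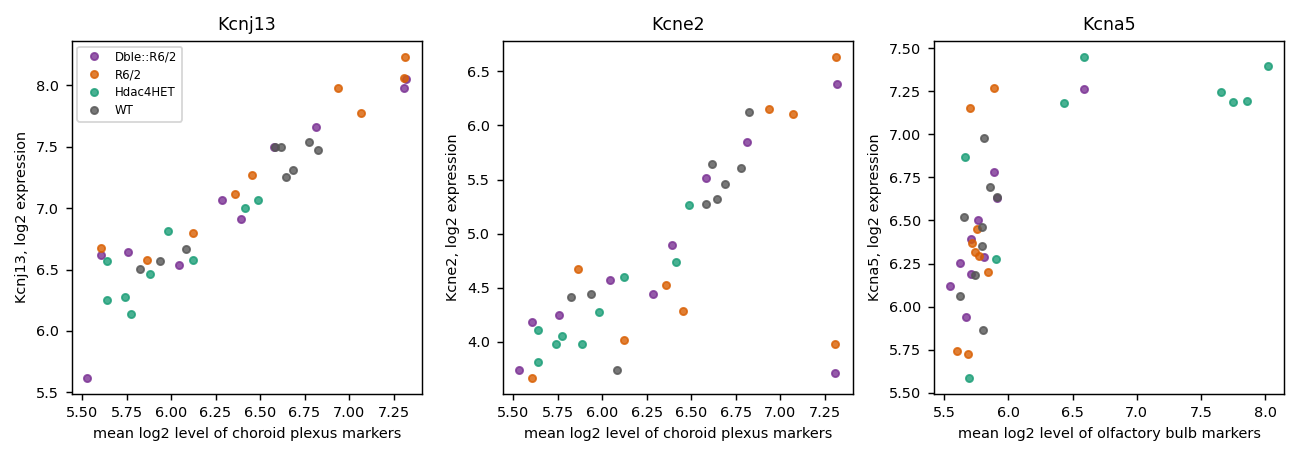
Log2 expression of Kcnj13, Kcne2 and Kcna5 (vertical axes) against the mean log2 level of 9 choroid plexus markers or 14 olfactory bulb markers (horizontal axes), 1 point per array, coloured by genotype. Kcnj13 rises with the choroid plexus mean over all genotypes, Kcne2 does so except for 1 R6/2 and 1 Dble::R6/2 array near 7.3 on the horizontal axis, and Kcna5 is at or above 7.18 on the 7 arrays with raised bulb markers.

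The proteins that bind or steer these channels, or carry the related hyperpolarisation-activated current, were read as a separate list of 26 genes. The list was chosen with earlier results of these data known, and 23 of its genes were measured. In R6/2 against WT 3 fell past both thresholds, against 3.30% of all genes, and the median change was -0.13. By the adjusted p at any size, 11 were lower and 3 higher, against 18.4% and 28.1% of all genes. Lingo1, a leucine-rich protein that binds BK channels, lay at 9.82, 10.04 and 10.20 in R6/2 cortex, against 10.80, 10.94 and 11.17 in WT cortex (-0.91, adjusted p = 9.2e-17). Dlg4, the scaffold PSD-95 that clusters Kv1 and Kir2 channels at synapses, changed by -0.44 (adjusted p = 4.15e-13). The same 3, Lingo1 (-0.86), Dpp10 (-0.43) and Dlg4 (-0.40), fell past both thresholds in Dble::R6/2 against Hdac4HET, against 4.08% of all genes. There 9 were lower and 4 higher by the adjusted p at any size, against 14.1% and 28.4% of all genes. Among the higher ones, Abcc9, the sulphonylurea receptor of vascular channels and a pericyte marker, was at 0.19 in R6/2 against WT and 0.25 in Dble::R6/2 against Hdac4HET. Its pore partner Kcnj8 changed by -0.04 and -0.05. Of 8 endothelium and pericyte markers, Abcc9 among them, 5 were higher and 0 lower by the adjusted p at any size in R6/2 against WT. In Dble::R6/2 against Hdac4HET 2 were higher and 0 lower. Over all genes 28.1% and 28.4% were higher in these comparisons, and 18.4% and 14.1% lower. The part of these cells in the channel changes was not tested.

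Counting a gene by any of its probe sets, 17 potassium channel genes had at least 1 lower past both thresholds in R6/2 against WT, against 4.77% of all genes, and 1 had a higher one, against 5.60%. In Dble::R6/2 against Hdac4HET 23 had a lower one, against 7.65% of all genes, and 0 a higher one, against 3.88%. Besides those named above, the added genes included Kcna6 (-0.65, adjusted p = 1.62e-06, on its second probe set), Kcnab3 (-0.42, adjusted p = 1.51e-05) and Kcns2 (-0.45, adjusted p = 1.7e-05), each in R6/2 against WT. Of the 84 genes, 38 had 1 probe set only and could not be checked in this way, Kcnh5, Kcnk4, Kcnk12, Kcns1 and Kcne1l among them.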

How the data were processed

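Cortex RNA of 37 mice was hybridised to 1 Affymetrix array each, and each array's genotype is the one its label gives. Log2 values for every probe set were deposited by the authors as a single table. Per the methods, quality was controlled with RACE and chips of low quality were left out, while the summarisation and normalization steps are not stated in any source used for this work. The methods give fewer WT, Hdac4HET and double-mutant arrays than were deposited and used here. Whether chips left out by the authors are among the 37 is not stated. The values were used as deposited. The platform annotation gave 1 symbol for 34945 of 45037 probe sets, several for 932 and no symbol for 9160. Probe sets with several symbols named no gene.

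All 37 arrays entered 1 linear model with a mean per genotype in limma 3.58.1 (lmFit, eBayes with trend) in R 4.3.3, with p-values adjusted over all probe sets. Adjusted p-values beside groups of 9 mice come from this fit. Calls need an adjusted p under 0.05 and over 1.3-fold, the study's thresholds. The fit was tested on simulated data. Promoters were searched and figures drawn with Python 3.11.15 and matplotlib 3.10.9. Members, subfamilies, markers and partners were chosen with earlier results of these data known. Named genes were all called members, members listed for their known role or as markers of a cell type, and members with a called probe set other than the brightest, 46 in all, and others were named after their values were seen. Replicate numbers are shared between genotypes but do not pair the mice (median correlations of same-numbered arrays -0.01 to 0.05), so they were not used in the fit. Alternatives were quantile normalization, dim probe sets left out, the methods' t-test, a fit of the compared genotypes alone, sex or replicate number as terms, array weights, probe sets ending in _x_at or _s_at left out, the mean of all probe sets, no fold threshold, and arrays left out.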

Additional observations from a re-analysis of the deposited data

Results flagged for a closer look

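Of 184 groups of arrays (46 named genes in 4 genotypes), 10 held an array far from the rest of its genotype, and chance gives about 1 in 20 groups. Low arrays were Kcnip2 in R6/2 replicate 8 at 9.12, with the nearest other at 9.40, Kcnq5 in R6/2 replicate 4 at 8.90 (nearest 9.07), Kcnj6 in Dble::R6/2 replicate 6 at 5.48 (nearest 6.06), Kcnj8 in Hdac4HET replicate 4 at 6.07 (nearest 6.31) and Kcnk12 in Hdac4HET replicate 1 at 7.38 (nearest 7.57). High arrays were Kcnk1 in R6/2 replicate 5 at 11.49 (nearest 11.34), Kcnt1 and Kcnq5 in Dble::R6/2 replicates 7 and 4 at 9.30 (nearest 9.23) and 9.18 (nearest 9.09), Kcnj6 in Hdac4HET replicate 3 at 6.48 (nearest 6.16) and Kcnk6 in Hdac4HET replicate 8 at 7.30 (nearest 7.05). Hdac4HET replicate 1, low for Kcnk12, is among the arrays with raised bulb markers and with sex-linked genes against the label. Dble::R6/2 replicate 6, low for Kcnj6, is the array on which Kcne2 was low beside high choroid plexus markers.

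Kcnj11 was the named gene whose R6/2 change differed with the Hdac4 null allele in the limma interaction test (0.29, adjusted p = 0.0127). The change was -0.24 in R6/2 against WT and 0.05 in Dble::R6/2 against Hdac4HET.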

How the results depend on the processing

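The counts of called genes kept within 1.5 times of 10 in R6/2 against WT and 13 in Dble::R6/2 against Hdac4HET, and the counts of 0 stayed at 0, except as follows. Without the fold threshold the counts were 42 in R6/2 against WT, 1 in Hdac4HET against WT, 3 in Dble::R6/2 against R6/2, 39 in Dble::R6/2 against Hdac4HET and 1 for the interaction, by construction. Quantile normalization gave 1 for the interaction, and the cause was not tested. With the replicate block the counts were 10, 0, 0, 15 and 0 in the same order. Leaving out each array in turn gave 9 to 12, 0 to 1, 0 to 0, 12 to 15 and 0 to 2. The 1 in Hdac4HET against WT came without Hdac4HET replicate 2, and the interaction gave 2 without R6/2 replicate 4 and 1 without WT replicate 6, Hdac4HET replicate 2, R6/2 replicates 5 or 8, or Dble::R6/2 replicates 1 or 8. In Dble::R6/2 against Hdac4HET, any-size counts, chosen after seeing the data, were 30 without the arrays with raised bulb markers and 34 without those with sex-linked genes against the label, beside 39. With the mean of all probe sets Kcnd2 reversed in R6/2 against WT, to -0.04 (limma adjusted p = 0.57), a change that was not called either way, and Kcnma1 in R6/2 against WT (-0.37) and Kcnh3 (-0.36) and Kcnip1 (-0.28) in Dble::R6/2 against Hdac4HET missed 1.3-fold, and the cause was not tested. Kcns1 in R6/2 against WT missed it without the arrays with sex-linked genes against the label (-0.38) and without WT replicate 9 or R6/2 replicate 2 (range -0.43 to -0.37), and Kcnip1 in Dble::R6/2 against Hdac4HET without the arrays with sex-linked genes against the label (-0.36). Other calls were gained in R6/2 against WT, all lower. The mean of all probe sets added Kcnj9 (-0.39), Kcnq5 (-0.41) and Kcnv1 (-0.54). Quantile normalization added Kcnk13 (-0.40) and Kcnv1 (-0.42). Leaving out the arrays with sex-linked genes against the label added Kcnk13 (-0.38) and Kcnv1 (-0.39). Detection calls were not used here, so values of dim probe sets may hold little signal of their gene.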
